A study of Mus musculus with 2 samples.

Results

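The BCL2 family decides whether a cell keeps its mitochondria intact or enters apoptosis. Anti-apoptotic members (BCL2, BCL-XL, MCL1 and A1) hold the pore-forming effectors BAX and BAK in check, and BH3-only members (BIM, BID, PUMA and NOXA) bind the anti-apoptotic proteins or the effectors and tip the balance toward death. In dendritic cells (DC), which are short-lived, BCL2, BCL-XL, A1 and BIM are known regulators of lifespan, and BIM limits the survival of activated DC. The family was followed here through 10 genes chosen by symbol: Bcl2, Bcl2l1 (BCL-XL), Mcl1 and Bcl2a1b (A1) as anti-apoptotic genes, Bax and Bak1 as effectors, and Bcl2l11 (BIM), Bid, Bbc3 (PUMA) and Pmaip1 (NOXA) as BH3-only genes. All 10 were listed among the 32285 genes of the count tables, and all 10 passed the filter on low counts in every comparison of cell classes.

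By the labels, splenic DC were taken from naive female mice aged 4 months (the methods give a younger range and both sexes for the study as a whole), and were profiled by single-cell RNA sequencing of transcript 3′ ends. The WT library (genotype H2-Aa +/+, littermates) and the H2-Aa cit/cit library each held live CD45.2+ CD11c+ cells of 3 pooled mice, after CD11c-based enrichment. The cit allele was induced by ENU and removes the MHC-II alpha chain in the whole animal, which also lacks most CD4 T cells, so an effect within DC and an effect of their host cannot be told apart. There was 1 library per genotype, and values between libraries therefore have no replicate error.

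Of the WT mice, 7814 cells with 51020804 unique molecular identifiers (UMIs, each a counted transcript molecule) were available, and of the H2-Aa cit/cit mice 11525 cells with 72652201 UMIs. The libraries shared 31 cell barcodes. Cells were gated by UMIs of marker genes. Conventional type 1 DC (cDC1) had at least 2 UMIs of Xcr1 and Clec9a together. Resting cDC1 numbered 523 (WT) and 714 (H2-Aa cit/cit), resting cDC2 1634 and 4237, mature DC without cDC1 genes (Ccr7, Fscn1 and Ccl22) 1729 and 1194, mature DC with cDC1 genes 105 and 22, proliferating DC without cDC1 genes 301 and 594, and plasmacytoid DC (pDC) 109 and 117. cDC2 with under 8% of UMIs from ribosomal protein genes were held apart as ribosome-poor cDC2 (1108 and 1094 cells). Markers outside the gates mostly followed the names: 8 cDC1 genes summed to 4906 and 4308 CPM (UMIs of a gene scaled to all UMIs of its class and library) in resting cDC1 against 193 and 182 CPM in resting cDC2, and 6 mature DC genes summed to 4094 and 3259 CPM in mature DC against 233 and 166 CPM in resting cDC2. Mature DC without cDC1 genes are so named by the gate on Xcr1 and Clec9a alone. They held 300 and 190 CPM of the 8 cDC1 genes. Of 6 cDC2 genes they held 183 and 288 CPM, against 801.7 and 886.5 CPM in resting cDC2. The part of cDC1-like cells in comparisons of this class was not tested. In the WT library, H2-Aa stood at 7456 CPM in resting cDC1 and 7722 CPM in resting cDC2, whereas the same classes of the H2-Aa cit/cit library had 48.3 and 80.4 CPM.

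Bcl2 (ENSMUSG00000057329) lies at chr1:106538178-106714274 of GRCm38 on the minus strand, and 5.2% of its 176097 bases are exonic. Bcl2l1 lies at chr2:152780668-152831728 on the minus strand, and Bcl2l11 on the plus strand of the same chromosome at chr2:128126038-128162547. Mcl1 (chr3:95658788-95663176, plus strand) is the most compact member, with 77.9% exonic bases. Bax (chr7:45461697-45466898, minus strand) and Bbc3 (chr7:16308393-16318205, plus strand) share chromosome 7. Bid lies at chr6:120891930-120916853 and Bak1 at chr17:27019810-27029009, both on the minus strand. No listed gene overlapped a member on its strand.

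Bcl2a1b (ENSMUSG00000089929, chr9:89199209-89207827, plus strand) belongs to a cluster of near-identical genes, and its counts cannot be taken as its own. The last 300 bases of its transcript, where a 3′ assay reads, matched those of Bcl2a1d at 99.3% and those of Bcl2a1a at 98.7% of aligned positions, so how reads were split among the 3 genes is uncertain. Their upstream sequences were also alike. The stretches before the first exon base annotated by GENCODE (GRCm38.p6, 5′ to 3′ on each gene's strand) are given to show this likeness. Capitals mark GAGGAAGT, a match to the core of ETS factors such as PU.1:
Bcl2a1a (chr9:88956670-88956899, plus strand): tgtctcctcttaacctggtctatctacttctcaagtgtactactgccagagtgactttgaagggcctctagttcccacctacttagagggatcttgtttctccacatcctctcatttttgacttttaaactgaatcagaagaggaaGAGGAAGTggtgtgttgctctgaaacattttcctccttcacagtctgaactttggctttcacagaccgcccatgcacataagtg
Bcl2a1b (chr9:89199023-89199208, plus strand): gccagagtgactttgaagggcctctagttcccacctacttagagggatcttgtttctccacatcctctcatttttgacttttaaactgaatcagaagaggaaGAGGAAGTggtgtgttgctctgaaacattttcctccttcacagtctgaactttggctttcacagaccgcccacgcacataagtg
Bcl2a1d (chr9:88731915-88732100, minus strand): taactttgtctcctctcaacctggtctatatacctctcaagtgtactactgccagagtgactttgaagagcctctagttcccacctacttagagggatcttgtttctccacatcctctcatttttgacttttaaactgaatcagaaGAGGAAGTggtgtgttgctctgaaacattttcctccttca
Of the upstream windows of 250 bases, 206 positions were aligned in each comparison with Bcl2a1b. It matched Bcl2a1a at 99.5% and Bcl2a1d at 96.1% of these positions. Motifs were sought in the 250 bases before a start. Among the members and Bcl2a1 genes, Pmaip1 was left out of that search. GAGGAAGT on either strand was present in 2.44% of 32851 such mouse windows, and in those of all 4 Bcl2a1 genes and of Bak1. A kappa-B motif (GGNNTTTCC) was present in 4.93% of windows, including those of Bcl2l1, Mcl1 and Bbc3, and a forkhead motif (GTAAACA) in 3.17%, including those of Bcl2l11 and Bbc3. The motifs were chosen after the values were seen, none of their matches in these windows overlapped another, and a match is a description of the letters only.

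Among the 7 DC classes, levels of Bcl2l1 and Bcl2l11 were highest in mature DC, with or without cDC1 genes. Bcl2l1, whose product BCL-XL guards mitochondria, ran from 5.94 CPM (WT) and 6.50 CPM (H2-Aa cit/cit) in resting cDC1 and 7.32 and 6.70 CPM in resting cDC2 to 82.9 and 45.4 CPM in mature DC. The counting intervals of resting cDC1 and resting cDC2 overlapped in both libraries, and mature DC stood above all resting classes. Bcl2l11, encoding the death activator BIM, stood at 19.7 and 20.9 CPM in resting cDC2 and at 134 and 91.4 CPM in mature DC, and reached 249 CPM in WT mature DC with cDC1 genes. Bcl2 had the opposite order, with 27.5 and 35.8 CPM in resting cDC2, 61.6 and 49.2 CPM in ribosome-poor cDC2, and 8.46 and 11.2 CPM in mature DC. Mcl1, which protects many blood cells and is turned over fast, moved least: its lowest and highest values over these 7 classes were 229 CPM in WT pDC and 457 CPM in WT mature DC with cDC1 genes.

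**Figure D1:**
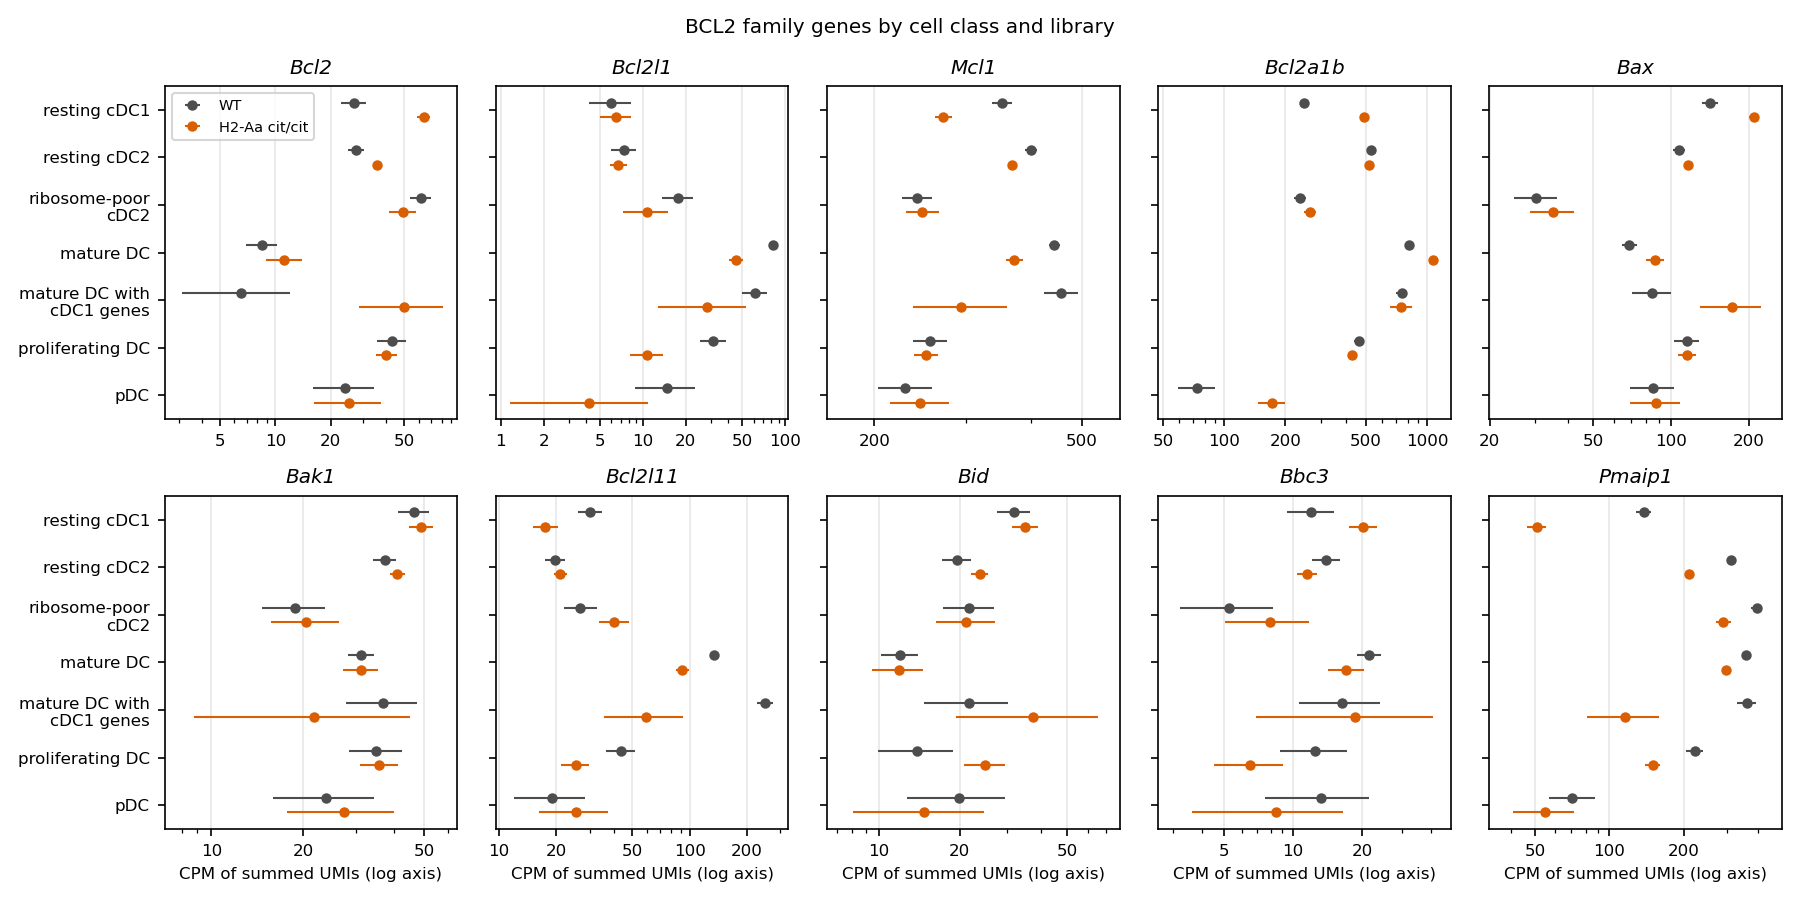
CPM of each BCL2 family gene (log axis) in 7 cell classes, in WT (grey) and H2-Aa cit/cit (orange); bars are exact Poisson 95% intervals of the summed UMIs and cover counting error only. Bcl2l1 is highest in mature DC (82.9 and 45.4 CPM) and Bcl2 lowest among WT classes in mature DC with and without cDC1 genes (6.54 and 8.46 CPM).

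The comparison of cDC1 with cDC2 asks whether the DC lineages carry different apoptotic settings. Both effectors and Bid were higher in resting cDC1, and Pmaip1 was lower. Bax stood at 141 CPM (WT) and 208 CPM (H2-Aa cit/cit) in resting cDC1 against 108 and 116 CPM in resting cDC2, so that both cDC1 values were above both cDC2 values. In a fit of UMIs summed per class and library, with the library as a block, the log2 difference was 0.85 ± 0.16 (SE; edgeR quasi-likelihood test, adjusted p = 0.0014). Bid, which links death receptors to mitochondria, had 31.7 and 35.0 CPM in cDC1 against 19.5 and 23.7 CPM in cDC2 (0.85 ± 0.19, edgeR adjusted p = 0.0048), again without overlap.
Bak1 had 46.2 and 49.0 CPM against 37.2 and 40.8 CPM (0.51 ± 0.16, edgeR adjusted p = 0.025). Pmaip1, the antagonist of MCL1 and A1, had 137 and 50.9 CPM in cDC1 against 310 and 209 CPM in cDC2 (−1.35 ± 0.30, edgeR adjusted p = 0.0047). All 4 differences pointed the same way in each library.

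These 3 higher members and 1 lower member of 10 compare with 16.5% of 13217 genes called higher in cDC1 and 14% called lower. The median log2 difference was 0.44 over the 10 members and 0.00 over all genes tested. The fit's scaling (TMM) placed cDC1 against cDC2 values 0.22 above the ratio of CPM, in the median over 6294 genes at 20 CPM. Scaled by total UMIs, a choice made after seeing the data, calls over all genes shifted to 1260 higher and 3122 lower (2177 and 1846 with TMM), and Bax (0.62), Bid (0.63) and Pmaip1 (−1.57) were still called while Bak1 was not (0.29, edgeR adjusted p = 0.13). Bak1 was also not called when only cells of 3000 UMIs or more were used (adjusted p = 0.089). No anti-apoptotic member was called, and here the libraries differed. Bcl2 was level with cDC2 in WT (26.7 against 27.5 CPM) but higher in H2-Aa cit/cit cDC1 (64.0 against 35.8 CPM; fit 0.71, edgeR adjusted p = 0.10). Bcl2a1b was lower in WT cDC1 (248 against 526 CPM) and near cDC2 in H2-Aa cit/cit (488 against 516 CPM; fit −0.33, edgeR adjusted p = 0.41). Its paralog Bcl2a1a was called higher in cDC1 (136 and 236 against 123 and 105 CPM; 0.92, edgeR adjusted p = 0.0098), and the 4 Bcl2a1 genes summed to 557 against 860 CPM in WT and 942 against 827 CPM in H2-Aa cit/cit. Bbc3 had 12 and 20.3 CPM in cDC1 against 14 and 11.5 CPM (adjusted p = 0.099), and Bcl2l11 had 30.0 and 17.5 CPM against 19.7 and 20.9 CPM (adjusted p = 0.52). The sign of the CPM ratio of cDC1 to cDC2 for Bcl2, Bbc3 and Bcl2l11 was thus not the same in the 2 libraries. In WT, the 95% counting intervals of Bcl2 (log2 −0.04, −0.31 to 0.23) and Bbc3 (−0.22, −0.63 to 0.18) included 0. For Bcl2l11 both intervals were off 0 (0.61, 0.33 to 0.88 in WT and −0.26, −0.51 to −0.02 in H2-Aa cit/cit). Bcl2l1 and Mcl1 had adjusted p of 0.92 and 0.78.

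The cDC1 gate is open at its edge: of cells with exactly 2 UMIs of Xcr1 and Clec9a, 37.6% (WT) and 55.6% (H2-Aa cit/cit) also held a UMI of the cDC2 gene Sirpa. With a gate of 4 UMIs and no Sirpa, Bax, Bak1, Bid and Pmaip1 were called again, and Bbc3 in addition (0.95, edgeR adjusted p = 0.025). Under these strict gates, calls over all genes rose too, to 2373 higher and 2272 lower of 12511.

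**Figure D2:**
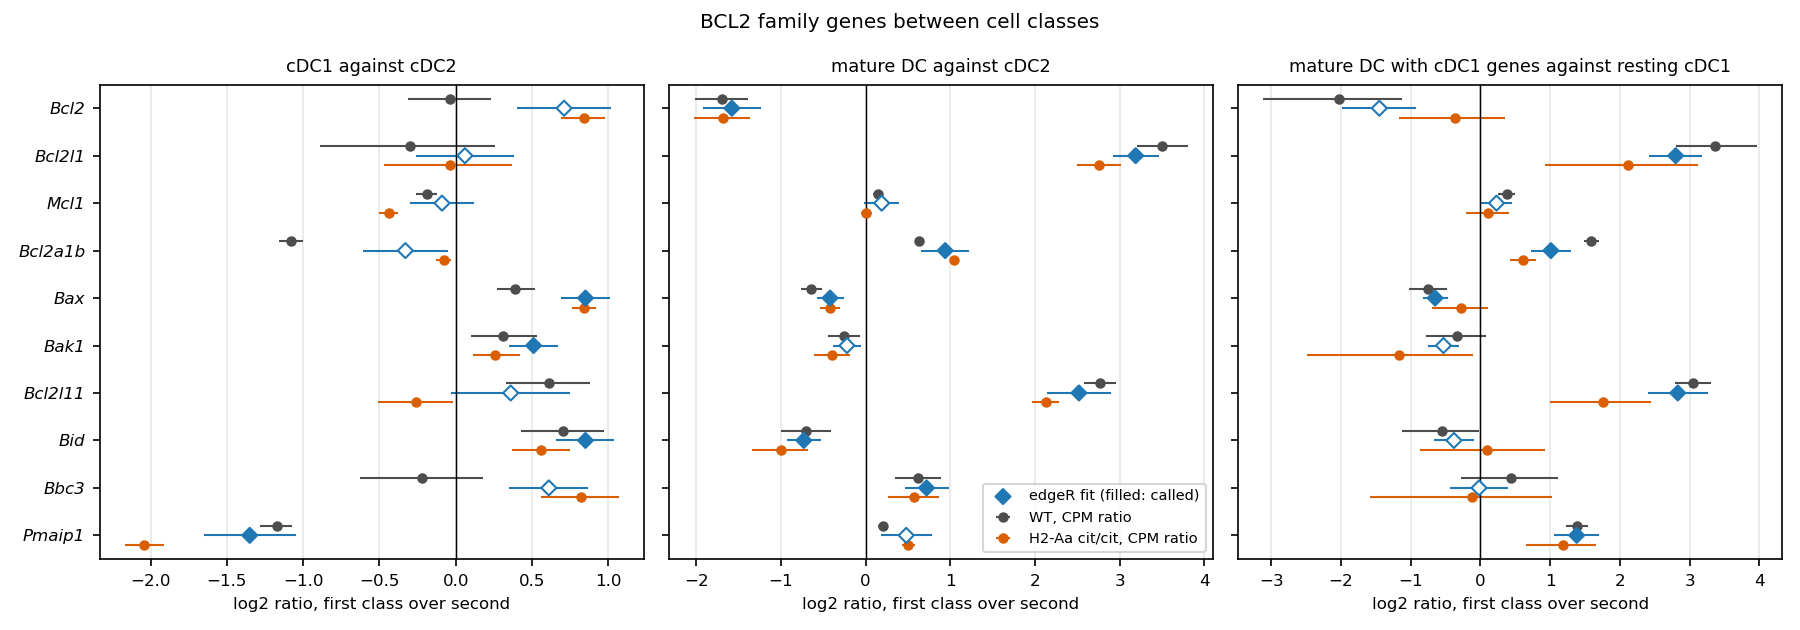
Log2 ratios of the 10 genes for cDC1 against cDC2, mature DC against cDC2, and mature DC with cDC1 genes against resting cDC1: ratios of CPM within WT (grey) and within H2-Aa cit/cit (orange) with 95% counting intervals, and the edgeR estimate with its SE (blue diamonds, filled where the adjusted p is under 0.05). Bcl2l1 and Bcl2l11 lie far right of 0 in both mature comparisons, and Bcl2a1b differs between libraries for cDC1 against cDC2 (−1.08 and −0.08).

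Mature DC carried more transcript of both BCL-XL and its antagonist BIM. Against resting cDC2, Bcl2l1 was 9.14-fold higher in mature DC without cDC1 genes (log2 difference 3.19 ± 0.27, edgeR adjusted p = 1.6e-06) and Bcl2l11 5.74-fold higher (2.52 ± 0.38, edgeR adjusted p = 0.00015). Within WT the log2 ratios of CPM were 3.50 and 2.77, and within H2-Aa cit/cit they were 2.76 and 2.13. Bcl2a1b, with 812 and 1066 CPM in mature DC against 526 and 516 CPM, was also higher (0.94 ± 0.28, edgeR adjusted p = 0.015), as were Bcl2a1a (1.07) and Bcl2a1d (0.94). Bbc3 followed, with 21.5 and 17.1 CPM against 14 and 11.5 CPM (0.72 ± 0.26, edgeR adjusted p = 0.033), but was not called with DESeq2 (adjusted p = 0.078), without ribosomal and mitochondrial genes (0.08) or with total UMIs as the scaling (0.08).
Bcl2 was 2.98-fold lower in mature DC (−1.58 ± 0.34, edgeR adjusted p = 0.002). Bid had 12 and 11.9 CPM against 19.5 and 23.7 CPM (−0.73 ± 0.20, edgeR adjusted p = 0.0097; 0.063 with strict gates), and Bax 69.0 and 86.8 CPM against 108 and 116 CPM (−0.42 ± 0.16, edgeR adjusted p = 0.042; 0.06 with DESeq2 and 0.26 with strict gates). Mcl1, Bak1 and Pmaip1 were not called. The 4 higher and 3 lower members stand beside 23.2% of all genes called higher and 25.1% called lower. The median log2 difference was 0.33 over the 10 members and −0.03 over all genes.

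Mature DC with cDC1 genes, set against resting cDC1, gave a like picture for Bcl2l1 and Bcl2l11. Bcl2l1 had 61.4 CPM (WT) and 28.1 CPM (H2-Aa cit/cit) in mature cells against 5.94 and 6.50 CPM at rest (2.80 ± 0.38, edgeR adjusted p = 0.00024). Bcl2l11 had 249 and 59.2 CPM against 30.0 and 17.5 CPM (2.83 ± 0.43, edgeR adjusted p = 0.00052). In these cells Pmaip1 was higher as well, with 359 and 115 CPM against 137 and 50.9 CPM (1.38 ± 0.32, edgeR adjusted p = 0.0068).
Bcl2a1b had 748 and 745 CPM against 248 and 488 CPM (1.01 ± 0.29, edgeR adjusted p = 0.02). Bax was lower, with 84.3 and 171 CPM against 141 and 208 CPM (−0.65 ± 0.18, edgeR adjusted p = 0.018; 0.067 with total UMIs as the scaling and 0.47 with only the 2 classes in the fit). Bcl2 had 6.54 CPM in WT mature cells and 49.9 CPM in the H2-Aa cit/cit cells (edgeR adjusted p = 0.059). These are 4 higher and 1 lower of 10 members, beside 13.2% and 15% of all genes. The H2-Aa cit/cit side rests on 22 cells, which were also less mature by the 6 mature DC genes (1138 CPM against 3342 CPM in WT). The split of calls over all genes moved with the scaling, from 1739 higher and 1989 lower to 1406 and 2801 without ribosomal and mitochondrial genes, and to 2105 and 1587 with DESeq2.

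pDC, the interferon-producing DC, were lower than resting cDC2 in A1 and NOXA. Bcl2a1b had 73.3 and 171 CPM in pDC against 526 and 516 CPM in resting cDC2 (4.66-fold lower, −2.22 ± 0.31, edgeR adjusted p = 0.00016), and Bcl2a1a and Bcl2a1d were lower by −2.47 and −2.23 on the log2 scale. Bcl2a1c had 0 UMIs in both pDC sums, where 3 UMIs would be 2.47 and 3.15 CPM, and its 2.42 and 2.26 CPM in cDC2 lay under that limit. The fit called it lower (edgeR adjusted p = 0.027), but no fold is given for a gene at 0.
Pmaip1 had 70.8 and 54.6 CPM against 310 and 209 CPM (−2.12 ± 0.35, edgeR adjusted p = 0.00052). Mcl1 was lower with 229 and 245 CPM against 400 and 368 CPM (−0.76 ± 0.22, edgeR adjusted p = 0.023). Bak1 had 23.9 and 27.3 CPM (29 and 26 UMIs) against 37.2 and 40.8 CPM (−0.69 ± 0.22, edgeR adjusted p = 0.04). Bak1 was not called with another scaling (RLE size factors) or with only cells of 3000 UMIs or more. Without the library as a block, neither Mcl1 nor Bak1 was called. No member was called higher in pDC, beside 11% of all genes, and 4 were called lower, beside 10.4%. Without ribosomal and mitochondrial genes the calls over all genes changed from 1460 higher and 1376 lower to 1236 and 1765.

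In proliferating DC without cDC1 genes, Bcl2l1 alone passed the test against resting cDC2, with 31.3 CPM (WT) and 10.7 CPM (H2-Aa cit/cit) against 7.32 and 6.70 CPM (1.31 ± 0.31, edgeR adjusted p = 0.01). The WT cells gated as proliferating also held more of the 6 mature DC genes (549 CPM) than the H2-Aa cit/cit cells (226 CPM) and than resting cDC2 (233 and 166 CPM), and the part of that in the Bcl2l1 value was not tested. Mcl1 had 256 and 252 CPM against 400 and 368 CPM (−0.65 ± 0.21, edgeR adjusted p = 0.055; 0.03 with total UMIs as the scaling). That is 1 member higher and 0 lower, beside 10.9% and 4.62% of all genes, and 2 members had an unadjusted p under 0.05. With only the 2 classes in the fit, 7 members were called, and calls over all genes rose to 2676 higher and 2126 lower of 12697. In the main fit, calls over all genes were 1440 higher and 610 lower, and 1270 and 840 without ribosomal and mitochondrial genes.

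Within resting cDC2, cells with at least 2 UMIs of Ccr2 and Mgl2 together (137 WT and 376 H2-Aa cit/cit cells) were set against cells with as many of Ffar2 and Esam together (920 and 2264). Either gene of a pair could supply the UMIs, so the second group is not defined by Esam alone. Bcl2a1b was 2.28-fold lower (−1.19 ± 0.07, edgeR adjusted p = 1.6e-08) and Pmaip1 2.17-fold lower (−1.12 ± 0.09, edgeR adjusted p = 1.9e-07) in Ccr2/Mgl2 cells. The summed Bcl2a1 genes had 389 and 426 CPM there, against 923 and 882 CPM in Ffar2/Esam cells. Markers of other cells moved with this split: 4 monocyte genes summed to 1515 and 694 CPM in Ccr2/Mgl2 cells against 145 and 121 CPM, and 4 pDC genes to 1298 and 1070 CPM against 413 and 378 CPM. No gene of either list was at 0, and their part in the differences was not tested. Bcl2l11 (0.81 ± 0.17, edgeR adjusted p = 0.0021) and Bak1 (0.65 ± 0.12, edgeR adjusted p = 0.0005) were higher. Mcl1 (0.28, edgeR adjusted p = 0.009) and Bax (0.27, edgeR adjusted p = 0.044) were higher by less. Neither was called with total UMIs as the scaling (edgeR adjusted p = 0.052 and 0.15) or without the library as a block. Bax was also not called with DESeq2, with strict gates or with only the 2 classes in the fit. Its log2 ratio of CPM was 0.40 (0.16 to 0.63) within WT and 0.05 (−0.11 to 0.21) within H2-Aa cit/cit. These 4 higher and 2 lower members compare with 18.8% and 16.6% of 11980 genes. Total UMIs as the scaling changed the calls over all genes from 2247 higher and 1990 lower to 1873 and 2525. The p-values of all these comparisons measure the spread between class sums of 2 libraries and not between animals.

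Between the libraries, 5 members were past 1.5-fold in resting cDC1. Pmaip1 was 2.70-fold lower in H2-Aa cit/cit cDC1, with 50.9 CPM (501 UMIs) against 137 CPM (833 UMIs) in WT (log2 −1.43, 95% counting interval −1.60 to −1.27). Bcl2 was 2.39-fold higher, with 26.7 CPM (162 UMIs) and 64.0 CPM (630 UMIs; log2 1.26, 1.01 to 1.52). Bcl2a1b was 1.97-fold higher, at 488 CPM against 248 CPM (log2 0.98, 0.89 to 1.06).
The paralogs moved the same way by less, with log2 ratios of 0.79 for Bcl2a1a and 0.33 for Bcl2a1d. The 4 Bcl2a1 genes summed to 557 and 942 CPM (log2 0.76, 0.70 to 0.82), with 44.6% and 51.8% of the sum from Bcl2a1b. The sum does not depend on how counted UMIs were split among the 4 genes. Reads that matched more than 1 of them may be uncounted, and their part was not tested. Bcl2l11 was lower at 17.5 CPM against 30.0 CPM (log2 −0.78, −1.09 to −0.47). Bbc3 was higher at 20.3 CPM against 12 CPM (log2 0.75, 0.36 to 1.16).
Bax (log2 0.56) and Mcl1 (log2 −0.37) lay within 1.5-fold, and the intervals of Bcl2l1, Bak1 and Bid included 0. Of the 9 members with at least 20 CPM in either library, 3 were higher and 2 lower by 1.5-fold, beside 8.11% and 4.79% of 6324 genes. Bbc3 reached 20 CPM only in H2-Aa cit/cit and Bcl2l11 only in WT, so the side of each was fixed by the minimum. The counts are not read as a result about the members. Intervals and levels cover counting error only, and there is no test of a genotype here.

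Several measures moved with the libraries in resting cDC1. Median depth was 11076 UMIs per WT cell and 13539 per H2-Aa cit/cit cell. The 6 mature DC genes summed to 103 and 88.5 CPM. The 3 hemoglobin genes checked for red cell RNA reached 934 CPM among WT cDC1 but 2.54 CPM among H2-Aa cit/cit cDC1, while 3 macrophage genes summed to 23.1 and 70.7 CPM and 4 monocyte genes to 486 and 329 CPM. Their part in the ratios was not tested. Without cells that held a UMI of Ccr7, Fscn1, Ccl22, Socs2 or Cacnb3, an alternative added after seeing the data that left 421 and 645 cells, the ratios kept their sign and 1.5-fold: 1.43 for Bcl2, 1.04 for Bcl2a1b, −0.70 for Bcl2l11, 0.66 for Bbc3 and −1.56 for Pmaip1. Under the gate of 4 UMIs without Sirpa, Pmaip1 reached −2.17 and Bcl2l11 −1.33. The ratios of the higher members Bcl2, Bcl2a1b and Bbc3 under that gate are not given here, so nothing is read from it for them.

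The members past 1.5-fold in resting cDC1 had smaller ratios in resting cDC2. No member passed 1.5-fold, of 8 with at least 20 CPM, beside 2.04% of 6554 genes higher and 1.45% lower. Pmaip1 was again lower, with 209 CPM against 310 CPM (log2 −0.57, −0.62 to −0.51), and at 1.48-fold fell just short. Among resting cDC2 it passed 1.5-fold in Ffar2/Esam cells (222 against 345 CPM, log2 −0.64, −0.71 to −0.56). In Ccr2/Mgl2 cells its log2 ratio was −0.30, and in the other resting cDC2 −0.47. Bcl2 was again higher, with 35.8 CPM against 27.5 CPM (log2 0.38, 0.21 to 0.56). Bcl2a1b was level (516 and 526 CPM). Bbc3 was slightly lower (11.5 against 14 CPM, log2 −0.28). Whether the ratios of cDC1 and cDC2 differ beyond replicate error cannot be tested with 1 library each. A further group of cDC1 offered a partial look: in the 80 WT and 88 H2-Aa cit/cit proliferating cells with cDC1 genes, Bcl2 (31.4 and 54.7 CPM, log2 0.80, 0.29 to 1.33), Bcl2a1b (135 and 284 CPM, log2 1.07, 0.83 to 1.31) and Pmaip1 (73.1 and 48.3 CPM, log2 −0.60, −1.02 to −0.18) had the signs seen at rest. Bcl2l11 was at 17.1 and 17.0 CPM in these cells. Other cells with cDC1 genes kept the signs of Bcl2 and Pmaip1 but not the higher Bcl2a1b. In ribosome-poor cDC1 (62 WT and 43 H2-Aa cit/cit cells) the log2 ratios were 2.42, −1.63 and 0.16 (−0.45 to 0.75 for Bcl2a1b). In mature DC with cDC1 genes they were 2.93, −1.64 and −0.00 (−0.21 to 0.20 for Bcl2a1b). All these cells came from the same libraries and are not replicates.

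**Figure D3:**
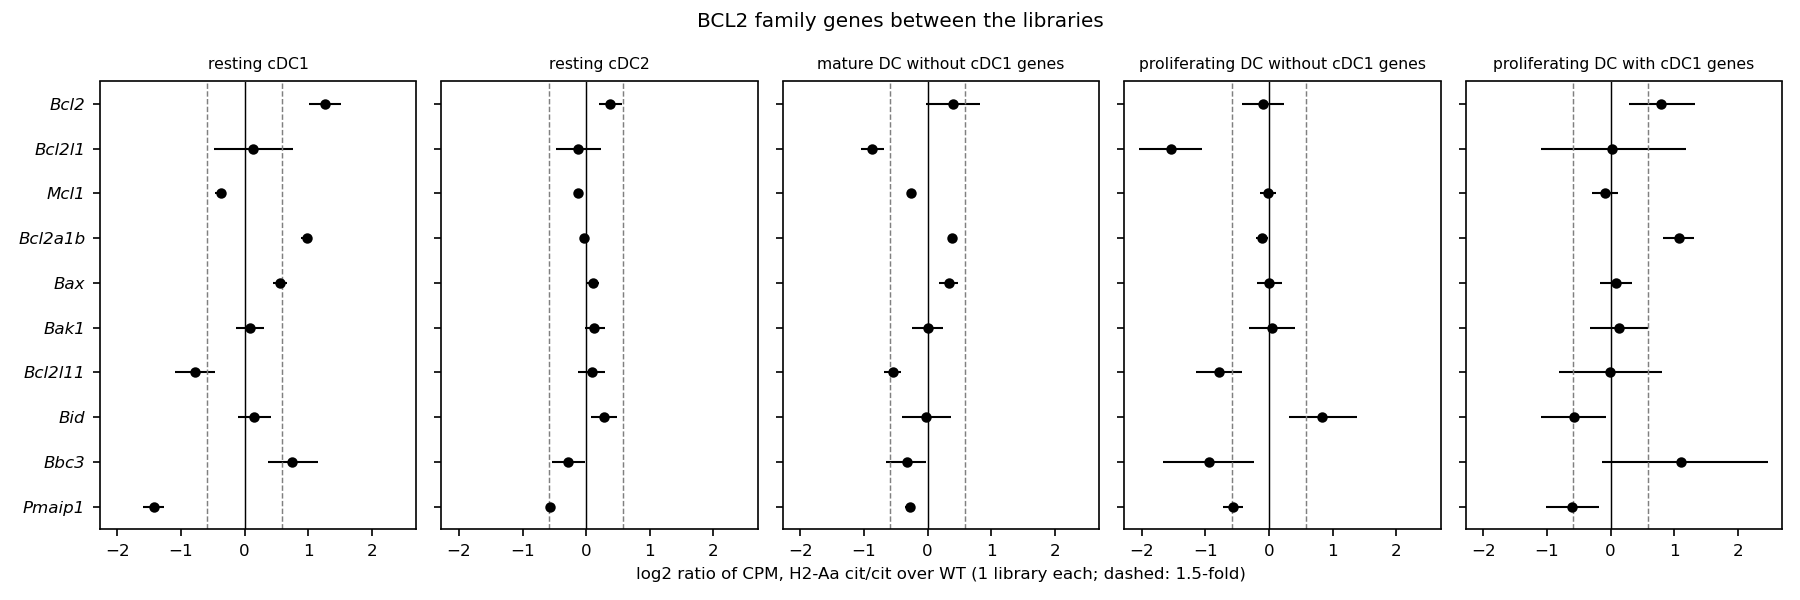
Log2 ratio of CPM, H2-Aa cit/cit over WT, for the 10 genes in 5 cell classes, with exact 95% counting intervals; there is 1 library per genotype and dashed lines mark 1.5-fold. In resting cDC1, Bcl2 (1.26) and Bcl2a1b (0.98) lie right of the lines and Pmaip1 (−1.43) left. In resting cDC2 all 10 lie between them, with Pmaip1 (−0.57) close to the left line.

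A sum of immediate-early genes was lower beside Pmaip1. It held 9 genes chosen after values were seen: Fos, Jun, Junb, Egr1, Ier2, Atf3, Dusp1, Nr4a1 and Zfp36. Single genes went both ways: 1 of the 9 was higher in H2-Aa cit/cit in resting cDC1, 1 in resting cDC2 and 2 in ribosome-poor cDC2. In mature DC without cDC1 genes, proliferating DC and pDC 3 were higher, and in mature DC with cDC1 genes 4. The sum was lower in H2-Aa cit/cit in all 7 classes, by log2 −0.45 in resting cDC1, −0.56 in resting cDC2 and −0.31 in mature DC. Pmaip1 was lower in all 7 as well, from −0.27 in mature DC to −1.64 in mature DC with cDC1 genes, and in pDC its interval included 0 (−0.37, −0.90 to 0.14). Mcl1 did not follow in every class, with −0.37 in resting cDC1 but 0.03 in ribosome-poor cDC2, −0.02 in proliferating DC and 0.10 in pDC. The part of these genes, which are known to respond to cell handling, in the Pmaip1 values was not tested.

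Mature DC without cDC1 genes had less Bcl2l1 in H2-Aa cit/cit, with 45.4 CPM (329 UMIs) against 82.9 CPM (1058 UMIs; log2 −0.87, −1.05 to −0.69). Bcl2l11 was lower by less than 1.5-fold (91.4 against 134 CPM, log2 −0.55, −0.69 to −0.42), and Bcl2a1b higher (1066 against 812 CPM, log2 0.39). The 6 mature DC genes were lower in the same cells, 3259 against 4094 CPM. So were the 8 cDC1 genes (190 against 300 CPM), while the 6 cDC2 genes were higher (288 against 183 CPM). Their part in these ratios was not tested. Bcl2l1 was the 1 member of 8 past 1.5-fold, beside 6.1% of genes higher and 4.8% lower. In proliferating DC without cDC1 genes, Bcl2l1 (10.7 against 31.3 CPM, log2 −1.54) and Bcl2l11 (25.2 against 43.5 CPM, log2 −0.79) were lower. Bid was higher (24.8 against 13.9 CPM, log2 0.83). That is 1 higher and 2 lower of 9, beside 2.54% and 4.5%. Bid reached 20 CPM only in H2-Aa cit/cit and Bcl2l1 only in WT, so the side of each was fixed by the minimum. The lower mature gene sum given above, 226 against 549 CPM, accompanies the values of these members. So do 3 hemoglobin genes (1.29 CPM, against 148 CPM in WT) and 3 plasma cell genes (57 against 227 CPM). Their part was not tested.
In ribosome-poor cDC2, Bcl2l11 was higher (40.3 against 26.7 CPM, log2 0.59, 0.20 to 0.99), as 1 of 8, beside 3.85% higher and 2.67% lower, and it lay within 1.5-fold when the median ratio of genes set the scale. In pDC, Bcl2a1b was higher (171 against 73.3 CPM, log2 1.22, 0.84 to 1.61), as 1 of 7, beside 5.57% and 7.08%, while the 4 Bcl2a1 genes together had a log2 ratio of 0.72 (0.43 to 1.02). The ratios of Bcl2a1a (−0.47) and Bcl2a1d (0.06) had intervals that included 0, and a Bcl2a1b UMI was present in 27.5% and 29.9% of pDC, or 5.5% and 9.48% with overlapping intervals after thinning to 1500 UMIs. In the 22 H2-Aa cit/cit mature cells with cDC1 genes, Bcl2l11 was lower (59.2 against 249 CPM, log2 −2.07, −2.82 to −1.41) and Bcl2 higher (16 and 10 UMIs, log2 2.93, 1.70 to 4.23).

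The share of cells with a UMI was compared after each cell was thinned to 1500 UMIs, since depth differed; 6 resting cDC1 of each library were shallower and left out (24 and 14 at 3000 UMIs). In resting cDC1, a Pmaip1 UMI was left in 15.7% of WT cells (exact 95% interval, 12.6 to 19.1) but 8.33% (6.4 to 10.6) of those from H2-Aa cit/cit mice, and a Bcl2a1b UMI in 28.0% (24.2 to 32.1) and 42.9% (39.3 to 46.7). Unthinned, Pmaip1 was present in 51.6% and 34.6%. Bcl2 was seen in 4.06% and 7.91% (18.7% and 44.0% unthinned), with intervals that overlapped at 1500 UMIs and were apart at 3000 (5.81% and 15.6%). Intervals were apart for 4 of 10 members at 1500 UMIs (Bcl2a1b, Bid, Bbc3, Pmaip1), and for 5 at 3000 (Bcl2, Mcl1, Bcl2a1b, Bax, Pmaip1). Only Bcl2a1b and Pmaip1 were apart at both depths. The share of all genes with intervals apart was not computed, so these counts are not read as a result about the members. The share for Bid, 1.93% and 5.23%, was not matched by its CPM (31.7 and 35.0) and is not read as a difference.
In mature DC, Bcl2l11 was detected in 15.7% (WT) and 12.5% (H2-Aa cit/cit) of cells, against 3.06% and 3.03% of resting cDC2. No gated class is known to lack these genes, so no background share from free RNA could be set.

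**Figure D4:**
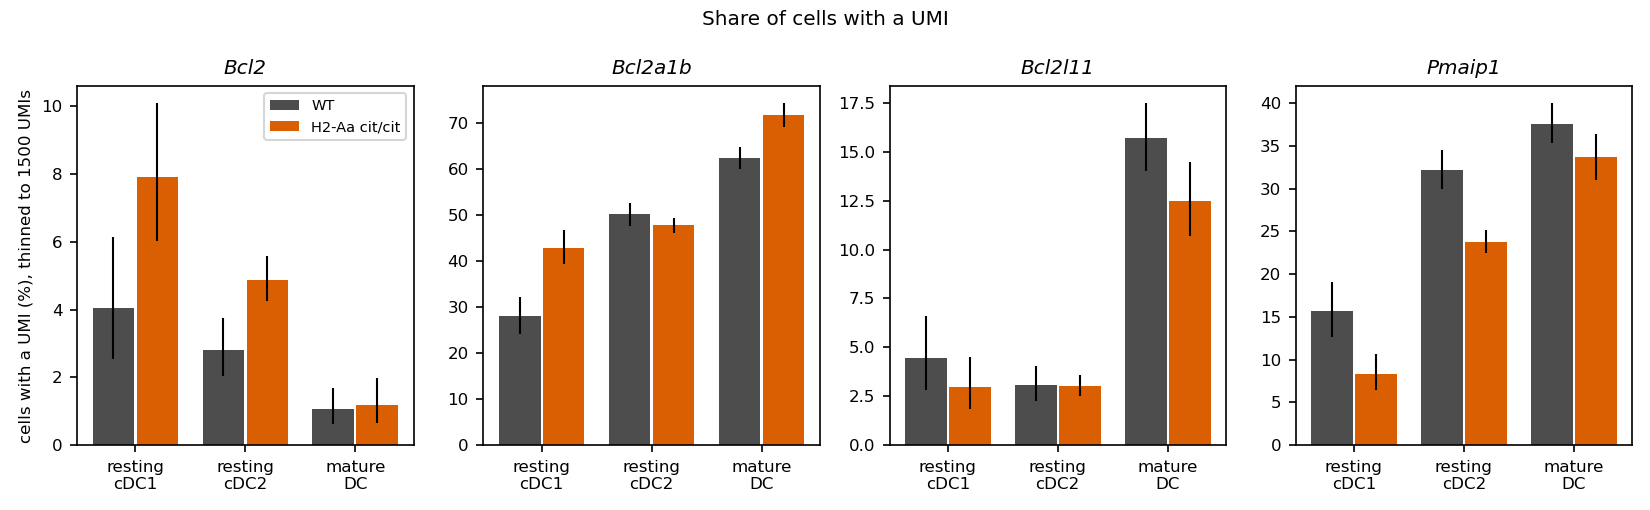
Share of cells with at least 1 UMI (%) after thinning each cell to 1500 UMIs, for 4 genes in resting cDC1, resting cDC2 and mature DC without cDC1 genes of WT (grey) and H2-Aa cit/cit (orange); bars start at 0 and error bars are exact 95% intervals. In resting cDC1, Bcl2a1b stands at 28.0% and 42.9% of cells and Pmaip1 at 15.7% and 8.33%.

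Genes with the most similar profile over the 14 sums of class and library were named by Pearson's r of log2(CPM + 1) among 8929 genes, as a description of sums that share libraries. Bcl2l1 was closest to Tnfrsf4 (0.975) and Rnf19a (0.974), and Bcl2l11 to Tbc1d15 (0.963) and Arl5a (0.958). Bcl2 was closest to Papss1 (0.956) and 2810004N23Rik (0.948). Mcl1 was closest to the immediate-early genes Junb (0.944) and Zfp36 (0.887), and Pmaip1 to Adam22 (0.95) and Rap1b (0.947). Bcl2a1b was closest to its paralog Bcl2a1d (0.951) and to Gbp2 (0.934). Bax had the highest value, with Cnih4 (0.981) and Cox7c (0.977). Bak1 was closest to Cebpzos (0.907) and Ctdsp2 (0.893), Bid to Ctnnd1 (0.900) and Eef1akmt4 (0.899), and Bbc3 to Tmem128 (0.897) and Nfkbib (0.878).

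The wider pathway was followed in 62 genes of 5 lists: 17 other BCL2 family genes, 13 caspases and apoptosome genes, 10 IAP and related inhibitors, 9 death receptor genes, and 13 p53 and stress regulators of BH3-only genes. In cDC1 against cDC2, 14 of the 57 tested were called higher and 2 lower, beside 16.5% and 14% of all genes (median 0.20, against 0.00). Trib3, a stress-induced pseudokinase, was among them (2.70, edgeR adjusted p = 2.7e-05), on 38.0 CPM in H2-Aa cit/cit cDC1 but 3 UMIs in WT cDC1. Cdkn1a, the p53 target p21, had 13.4 and 61.7 CPM in cDC1 against 4.98 and 10.4 CPM (2.45, edgeR adjusted p = 0.0041). The death receptor gene Tnfrsf10b had 1.82 and 1.73 CPM against 0.293 and 0.290 CPM (2.72, edgeR adjusted p = 0.004). Its value rests on few counts, 11 and 17 UMIs in cDC1 and 4 and 9 UMIs in cDC2. Foxo3, a forkhead activator of BH3-only genes, was lower (50.8 and 52.6 against 93.2 and 98.7 CPM, −0.67, edgeR adjusted p = 0.0017), as was Bcl2l15 (0.660 and 0.812 against 4.69 and 2.90 CPM).

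In mature DC against cDC2, 20 of 57 were called higher and 16 lower, beside 23.2% and 25.1% of all genes (median 0.00, against −0.03). The death receptor Fas had 151 and 114 CPM against 3.30 and 2.68 CPM (5.53, edgeR adjusted p = 2e-08), Cdkn1a 140 and 97.9 CPM (4.10) and Bcl2l14 220 and 48.6 CPM against 13.6 and 10.1 CPM (3.27). Of 10 IAP and related inhibitors, 4 were higher, including Birc2 with 474 and 436 CPM against 52.8 and 51.1 CPM, and 3 were lower. Of 13 caspase and apoptosome genes, 4 were higher and 5 lower, among them Casp6 (5.02 and 6.90 against 22.8 and 26.8 CPM, −1.96) and Casp2 (−1.65). The TNF receptor gene Tnfrsf1a was lower too (−1.79).
In pDC, 1 of 57 was higher (Bad, 0.84) and 7 lower, beside 11% and 10.4% of all genes, of which 3 were Bcl2a1 genes (Bcl2a1c with 0 UMIs in pDC, as above). In proliferating DC, 4 were higher, led by the cell cycle factor E2f1 (2.28), Fas (2.10) and Mlkl (1.57), and 4 lower, led by Bmf (−1.03), Casp6 (−0.92) and Naip5 (−0.58), beside 10.9% and 4.62% of all genes. In Ccr2/Mgl2 against Ffar2/Esam cDC2, 13 of 55 were higher, led by Bcl2l2 (1.48), Cdkn1a (1.31) and Bnip3 (1.08), and 10 lower, led by Bcl2l15 (0 and 0.908 against 5.98 and 3.38 CPM) and Bcl2a1a (−1.13), beside 18.8% and 16.6% of all genes. In mature DC with cDC1 genes against resting cDC1, 12 of 57 were higher and 13 lower, beside 13.2% and 15% of all genes.

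Between the libraries, 4 of the p53 and stress regulators of BH3-only genes were past 1.5-fold in resting cDC1. Of 11 that met the minimum of 20 CPM, 4 were higher in H2-Aa cit/cit and 0 lower. The other 7 lay within 1.5-fold, among them Trp53 (log2 0.10), Mdm2 (0.15) and Mdm4 (−0.01). Over the 5 lists 6 of 37 were higher and 1 lower, beside 8.11% and 4.79% of all genes. Ddit3, Cdkn1a and Trib3 met the minimum only in H2-Aa cit/cit, so the side of each was fixed by it. Atf4 met it in both. The lists were also chosen with earlier results of these data known. The counts are therefore not read as a result about any list. Ddit3, encoding CHOP, went from 9.57 CPM (58 UMIs, WT) to 155 CPM (1529 UMIs, H2-Aa cit/cit; log2 4.02, 3.64 to 4.42), Atf4 49.7 and 184 CPM (1.89, 1.71 to 2.07), Cdkn1a 13.4 and 61.7 CPM (2.21, 1.87 to 2.56), and Trib3 3 and 374 UMIs (6.26, 4.70 to 8.55). In resting cDC2, Ddit3 (13.4 and 51.1 CPM, log2 1.93) and Atf4 (42.8 and 69.2 CPM, log2 0.69) were higher. Cflar, which blocks caspase 8, was higher in cDC1 (55.9 and 92.7 CPM, log2 0.73). None of 9 caspase and apoptosome genes and none of 3 death receptor genes passed 1.5-fold in resting cDC1.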

How the data were processed

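The authors deposited UMI counts per gene and cell for 1 library per genotype, made with Cell Ranger 5.0.1 against mm10; gene annotation and the treatment of intronic reads are not given in the sources used here. All deposited barcodes were used, doublets were not called, and cells over 10% mitochondrial UMIs (93 WT and 99 H2-Aa cit/cit) were kept. Members, lists and gates were chosen with earlier results of these data known. Gates were applied in a fixed order (lymphoid cells, macrophages, neutrophils and monocyte-like cells first). UMIs were summed per class and library (14 sums, 6 residual degrees of freedom; 6 sums and 2 for cDC2 subclasses) and tested with edgeR 4.0.16 (TMM, filterByExpr, quasi-likelihood, library as a block) over all genes with Benjamini-Hochberg adjustment; called means an adjusted p under 0.05. The script was tested on simulated data. Between libraries, log2 ratios of CPM have exact conditional binomial 95% intervals and no test; 1.5-fold was read among genes with 20 CPM in either library. Named genes were all members and Bcl2a1 genes, the 3 called genes with the largest rise and fall in each test against cDC2 over the 5 lists, and the 2 genes most alike each member; 1 gene that the rule names is not reported here. Alternatives were DESeq2 1.42.0, other scalings, filters, gates and cells. The labels give an age of 4 months.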

Additional observations from a re-analysis of the deposited data

Results flagged for a closer look

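Bbc3, the gene of the BH3-only protein PUMA, had ratios of opposite sign in the resting lineages. In resting cDC1 the log2 ratio of H2-Aa cit/cit to WT was 0.75 (12 and 20.3 CPM, 73 and 200 UMIs, 95% counting interval 0.36 to 1.16). In resting cDC2 it was -0.28 (14 and 11.5 CPM, 191 and 358 UMIs, −0.54 to −0.02). The difference between the lineages was not tested, since each value rests on 1 library per genotype.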

How the results depend on the processing

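No called member changed sign in either library taken alone or under any alternative run. Without the library block, which pairs sums of the same library, 2 members were called for cDC1 against cDC2 (4 with it), 4 for mature DC (7), 2 for mature DC with cDC1 genes (5), 2 for pDC (4), 4 for cDC2 subclasses (6), and 0 for proliferating DC (1; edgeR, 2 at an unadjusted p under 0.05). Calls over all genes without the block were 1232 higher and 1227 lower for cDC1 against cDC2, and 2402 and 2495 for mature DC. They were 1487 and 1506 for mature DC with cDC1 genes, and 1192 and 1044 for pDC. For cDC2 subclasses they were 1338 and 1207, and for proliferating DC 1043 and 207. For proliferating DC, 2 members were called with DESeq2, with strict gates, without ribosomal and mitochondrial genes and with total UMIs as the scaling, 4 with no filter on low counts, and 7 with only the 2 classes in the fit. In that class, calls over all genes were 1616 higher and 1031 lower with no filter, and 2676 and 2126 with only the 2 classes. They were 1561 and 693 with DESeq2, and 1321 and 544 of 12511 with strict gates. Without ribosomal and mitochondrial genes they were 1270 and 840, and with total UMIs as the scaling 1548 and 418. Between libraries, the median ratio of genes as the scaling gave 2 members past 1.5-fold in mature DC and 0 in ribosome-poor cDC2 (1 in each otherwise). A minimum of 5 CPM gave 2 in ribosome-poor cDC2, 3 in pDC, where strict gates gave 2, and 4 in proliferating DC (3 otherwise). The cause of these changes was not tested. At 5 CPM, 7.09% of genes were higher and 6.03% lower in ribosome-poor cDC2, and 11.1% and 12.5% in pDC. In proliferating DC the shares were 4.73% and 9.15%. No share over all genes was computed for the median scaling or for strict gates. Of single member values, 32 lost and 25 gained a call between classes, and 35 without a call changed sign. Another 658 kept their sign and, where a test was run, their call. These counts include ratios within 1 library, which have no test and were judged by sign alone. Between libraries 27 of the single member values moved and 353 did not, and 56 of 60 shares moved when cells were thinned to 3000 UMIs. A sum of 36 UMIs limits Bcl2l1 in WT resting cDC1, and 22 H2-Aa cit/cit cells limit all values of mature DC with cDC1 genes.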

Other observations

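Monocyte-like cells, gated by Ace and Fabp4 (126 WT and 138 H2-Aa cit/cit cells), had far more Bcl2 than any of the 7 DC classes. The WT cells held 553 Bcl2 UMIs (617 CPM, 567 to 671) and the H2-Aa cit/cit cells 375 (300.1 CPM, 270.5 to 332), a log2 ratio of −1.04 (−1.23 to −0.85). Among those classes the highest Bcl2 value was 64.0 CPM. Bbc3 was also lower in the H2-Aa cit/cit monocyte-like cells, on 29 and 17 UMIs (log2 −1.25, −2.21 to −0.34). The 6 mature DC genes summed to 881 CPM in the WT cells and 182 CPM in the H2-Aa cit/cit cells, 4 monocyte genes to 2621 and 1382 CPM, and 6 cDC2 genes to 845 and 972 CPM. Their part in these values was not tested. Mcl1 was level at 460 and 459 CPM.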
